A study of Drosophila melanogaster with 3 samples.

Results

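The 9 genes described here are the core of the Hedgehog pathway of Drosophila melanogaster together with engrailed (en) and invected (inv). They were chosen by name as en, inv, hedgehog (hh), patched (ptc), smoothened (smo), fused (fu), costa (cos), Suppressor of fused (Su(fu)) and cubitus interruptus (ci), and all 9 were found under these symbols among the 13945 protein-coding genes of the main chromosome arms. The question was where the zinc finger protein CG6254 was recovered at these genes in the embryo.

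Hedgehog is a secreted ligand that one row of cells in each embryonic segment makes under the control of the homeodomain protein Engrailed, and that neighbouring cells receive. Its receptor Patched holds Smoothened inactive until the ligand binds, after which Smoothened acts through a complex of Fused, Costa and Suppressor of fused on the zinc finger transcription factor Cubitus interruptus, which in turn drives ptc and other targets. The pair en and inv lies in a domain kept silent by Polycomb group proteins outside the cells that express it.

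Binding was read out by ChIP-seq, the sequencing of immunoprecipitated chromatin, in 3 biological replicates that form a single group, with no second condition. The material was whole embryos of both sexes, aged 0 to 14 h, from a transgenic line that stably expresses CG6254 fused at its C-terminus to green fluorescent protein (GFP), and the precipitation used an antibody against GFP on chromatin sonicated to a size range of 200 to 800 bp. No untagged or control sample was analysed here, and in whole embryos weak binding in many cells and strong binding in few cells cannot be told apart.

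The main list held the 4426 peaks that the authors kept after an irreproducible discovery rate (IDR) procedure over the replicates, with signals between 147.508 and 15458.9, a median of 228.739 and a median width of 416 bp. Signal is the authors' own value for each peak, on a scale that is not stated, and rank 1 is the highest signal of a list. Behind this list stand relaxed lists of 30000 peaks for each replicate and for the pooled replicates, which include background, so a summit in a relaxed list alone is a weak candidate and not a called site. The IDR peaks were the 4426 strongest of the pooled list. A promoter summit is one at most 500 bp from a gene's transcription start site (TSS), and the window of a gene is its body with 5 kb on each side. Coordinates are on dm6 and count from 1.

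None of the 9 genes had an IDR summit at its promoter or in its body. Promoter summits were present at 14.8% of all protein-coding genes and body summits at 11.5%, and with only 9 genes a count of 0 is not read as lower than these shares. In the wider window 3 of the 9 genes, ptc, smo and cos, had IDR summits, against 41.5% of all protein-coding genes. There were 6 such summits, and all 6 lay past the 3′ end of the gene, inside or at the start of a neighbouring gene. Per length the windows of the 9 genes held 3.28 IDR summits per 100 kb, against 3.65 per 100 kb over the windows of all protein-coding genes. Without ptc, the other 8 windows held 3 IDR summits in 157.1 kb, or 1.91 per 100 kb. As ptc held the most IDR summits of the 9, this lower value follows from leaving it out and is not compared with 3.65.

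**Figure D1:**
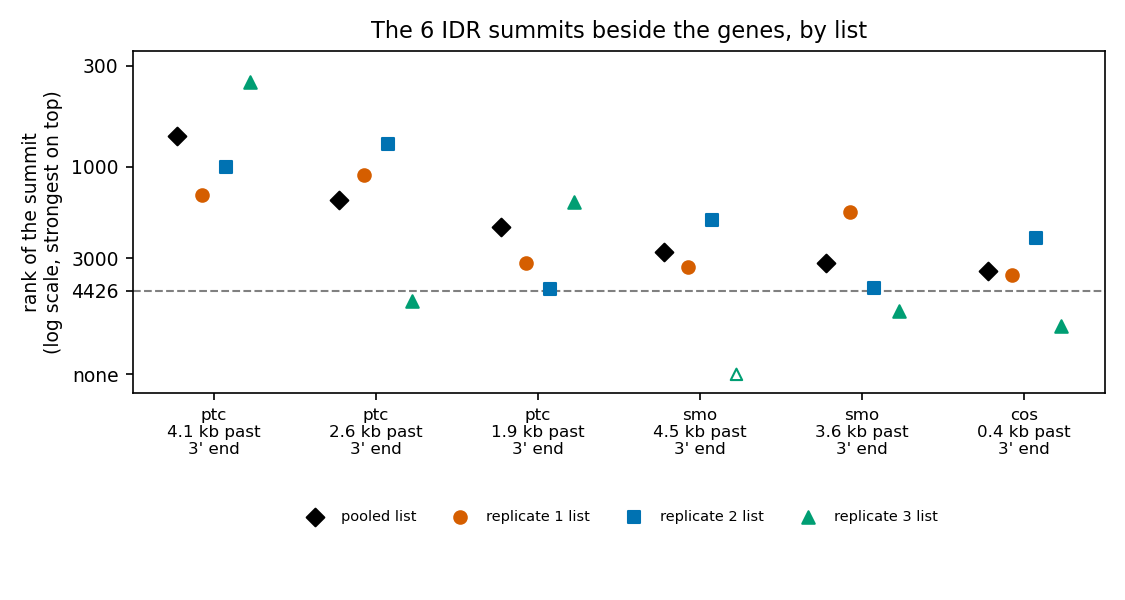
Ranks of the 6 IDR summits beside ptc, smo and cos in the pooled list and in each replicate list (log scale, strongest on top), with the distance past the 3′ end of the gene under each; open symbols mark lists with no summit within 200 bp, and the dashed line is rank 4426. The ptc summit 4055 bp past the gene had the best pooled rank, 692, and in replicate 3 the counterparts of 4 summits, 1 of ptc, both of smo and that of cos, were missing or past the line.

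The strongest of the 6, beside ptc, had a signal of 457.702 and rank 692, with a counterpart in every replicate. The weakest, beside cos, had a signal of 173.09 and rank 3474. A counterpart, meaning a summit within 200 bp, was found among the 4426 strongest peaks of every replicate for 2 of the 6 (33.3%), against 2480 of all 4426 IDR peaks (56.0%). Both belonged to ptc. Replicates 1 and 2 held all 6 among their strongest 4426 peaks, whereas replicate 3 held 2 of them. Shares of all IDR peaks for single replicates are not given here. The lower count in replicate 3 is therefore not read as particular to these genes. When 1 replicate was left out, only IDR peaks matched in both others were kept. The ptc gene alone kept 2 summits without replicate 1 and 2 without replicate 2, and all 6 summits remained without replicate 3. The matches in each replicate fix these counts in advance.

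In the relaxed lists the genes were covered more often. The pooled relaxed list placed promoter summits at 6 of the 9 genes, against 43.0% of all protein-coding genes, and window summits at 8 of the 9, against 82.6%. The median of the best promoter ranks was 14534 over the 6 genes with one and 7325 over the 5991 protein-coding genes with one. Of the 6, ptc at rank 4560 and smo at rank 6348 ranked stronger than that median of all genes, and the other 4 ranked weaker. The single replicates gave 5 of the 9 promoters in replicate 1 (48.3% of all protein-coding genes), 6 in replicate 2 (48.4%) and 4 in replicate 3 (37.4%). Only ptc and ci had a promoter summit in each of the 3 replicate lists, 4 genes had one in 2 lists, smo in 1 list, and hh and cos in 0.

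Among the 4426 strongest peaks of a replicate, promoter summits were found at 0 of the 9 genes in replicate 1, where 16.4% of all protein-coding genes had one, at 2 in replicate 2 (16.0%) and at 0 in replicate 3 (12.6%). The 2 in replicate 2 were ptc and smo. By window, the same strongest peaks marked 3 of the 9 genes in replicate 1 (43.1% of all protein-coding genes), 4 in replicate 2 (42.9%) and 3 in replicate 3 (39.0%). These shares were near those of all genes in each replicate, with ptc and smo marked in each of the 3. In replicate 3 the smo mark was a summit of rank 3411, 7555 bp downstream of the TSS. It was neither of the IDR summits near smo.

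**Figure D2:**
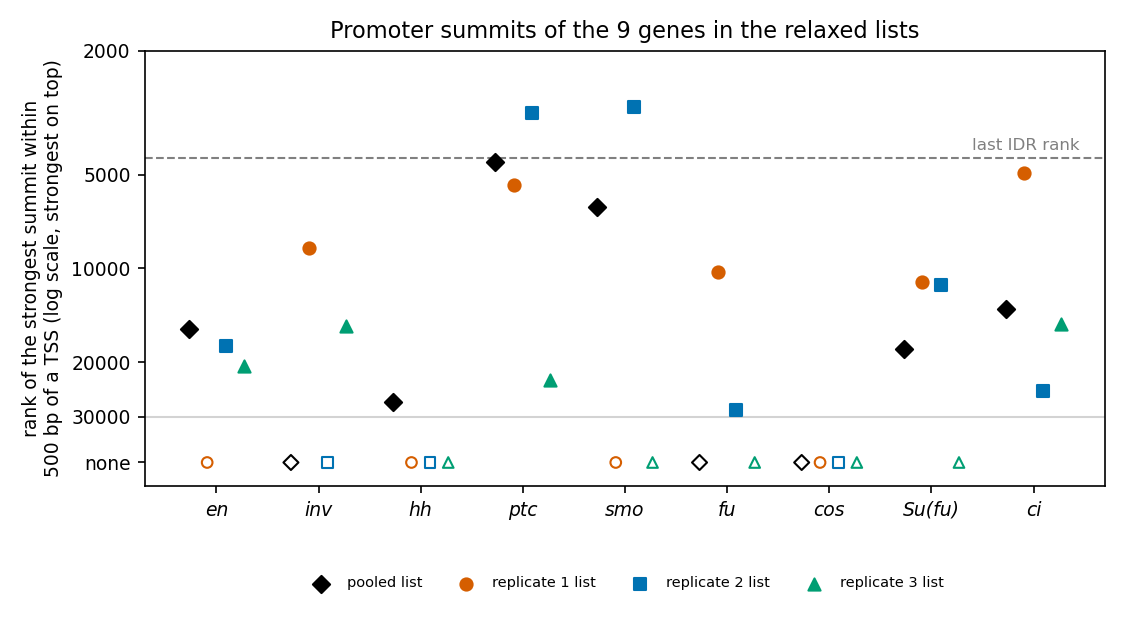
Rank of the strongest promoter summit of each gene in the pooled list and in each replicate list (log scale, strongest on top); open symbols mark lists with none, the dashed line is the last IDR rank, 4426, and the grey line is the end of the lists at 30000. The symbols above the dashed line are ptc and smo in replicate 2, and the ptc summit of the pooled list lies just under it at rank 4560.

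The transcription factor genes en and inv encode paralogous homeodomain proteins and are neighbours. The gene en (FBgn0000577, 2R:11524006-11528210, minus strand) had 4 pooled summits in its window and none in its body. Its promoter summit, 203 bp upstream of a TSS, had rank 15603 and signal 66.7813 in the pooled list, rank 17761 in replicate 2 and rank 20520 in replicate 3, and was absent from replicate 1. Its strongest window summit lay 2354 bp past the 3′ end of the gene, with pooled rank 6631 and signal 115.138, and with ranks 10719, 11963 and 5726 in replicates 1, 2 and 3. It was thus stronger and more regular than the promoter summit. It was still under the IDR list in the pooled data and outside the strongest 4426 peaks of every replicate. In replicate 1 another window summit was stronger, 1541 bp upstream of a TSS at rank 4905.

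The gene inv (FBgn0001269, 2R:11474465-11509695, plus strand) is the longest of the 9 at 35231 bp and held 19 pooled summits, 16 of them in its body. The strongest was intronic, at 2R:11494387, with rank 7244, signal 108.703, and ranks 10880, 5382 and 13043 in replicates 1, 2 and 3. Another intronic summit had rank 10858 in the pooled list but rank 3003 in replicate 3, and no counterpart in the other replicates. At the promoter the pooled list had no summit, while replicate 1 had one of rank 8583 at 34 bp downstream of a TSS and replicate 3 one of rank 15288 at 378 bp downstream. These 2 summits did not mark the same place, since their distances from the TSS differed by more than the 200 bp used to match summits.

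Between their outer neighbours E(Pc) and tou, en and inv are the only protein-coding genes in an interval of 112.2 kb (2R:11465271-11577484), which was added to the comparison after the data had been seen. It held 1 IDR summit, at 2R:11541258, between en and tou and 13048 bp upstream of the en TSS, with rank 3802, signal 163.467 and ranks 8925, 4421 and 2709 in replicates 1, 2 and 3. That is 0.891 IDR summits per 100 kb, against 3.65 per 100 kb over the windows of all protein-coding genes. The regions are unlike, since the interval includes DNA more than 5 kb from either gene, and 1 summit is too few to read as sparse. The same limit of unlike regions holds for relaxed summits. The pooled list had 37, or 33.0 per 100 kb against 23.9 over all gene windows, of which 16 lay in inv, 5 in the 14310 bp between inv and en, 0 in en and 14 between en and tou. The replicates gave 31, 33 and 28 summits in the interval.

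The ligand gene hh (FBgn0004644, 3R:23128169-23141906, minus strand) had 11 pooled summits in its window and no IDR summit. Its nearest IDR summit lay 7262 bp upstream of its TSS, at 3R:23149168 in intergenic DNA, which is 2262 bp beyond the window, with hh as the gene of the nearest TSS. This summit had a signal of 201.506 and rank 2726, and ranks 3909, 2728 and 2971 in replicates 1, 2 and 3, so all 3 replicates held it among their strongest 4426 peaks. At the hh promoter itself the pooled list had a summit 9 bp upstream of the TSS with a signal of 46.77 and rank 26791, near the end of the list, and no replicate had a promoter summit. Replicate 1 had a summit of rank 4977 just outside the promoter limit, 513 bp downstream of the TSS.

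Inside hh the strongest summits of the pooled list were intronic, at 8379 and 6970 bp downstream of the TSS, with ranks 9200 and 9618. The first of these had ranks 10461, 26716 and 10817 in replicates 1, 2 and 3, and so was weakest in replicate 2. Its 101 bp on dm6 are shown because they are the strongest position within the ligand gene in the pooled list. Replicates 1 and 2 had stronger summits elsewhere in the gene body, at ranks 4977 and 8596. The 101 bp span 3R:23133477-23133577 and are read on the minus strand, 5′ to 3′, from the RefSeq copy of the assembly. Of the bases, 20.8% are G or C, and the capitals mark the homeodomain core TAATTA.
hh intron: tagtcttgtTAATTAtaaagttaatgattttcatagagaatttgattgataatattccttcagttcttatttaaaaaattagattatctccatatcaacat

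The receptor gene ptc (FBgn0003892, 2R:8649649-8665223, plus strand), which is also a direct target of the pathway, stood out among the 9 by the number of its summits. It had 3 IDR summits, and they lay 1904, 2591 and 4055 bp past its 3′ end, in introns of Acsl, which encodes a long-chain acyl-CoA synthetase. The summit at 4055 bp (2R:8669278, peak 2R:8669174-8669308) had a signal of 457.702, rank 692 and ranks 1397, 1000 and 362 in replicates 1, 2 and 3. The summit at 2591 bp had a signal of 296.162, rank 1484 and replicate ranks 1104, 764 and 5001. The summit at 1904 bp had a signal of 239.942, rank 2058 and replicate ranks 3180, 4347 and 1531. The order of the 3 was thus not the same in the replicates, and the nearest TSS to each was that of Acsl, at 956, 1643 and 1445 bp from the summits at 1904, 2591 and 4055 bp.

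On the other side, an IDR summit 5259 bp upstream of the ptc TSS (2R:8644390, intergenic) fell 259 bp outside the window and was not counted. It had a signal of 458.339, rank 691 and ranks 666, 741 and 804 in replicates 1, 2 and 3, close together in the 3 lists, and its nearest TSS was that of ptc. The ptc promoter was the closest of the 9 to the IDR list. Its summit 12 bp upstream of the TSS had a signal of 145.012 against the lowest IDR signal of 147.508, and rank 4560, 134 ranks past the last IDR peak. Replicate 2 had it at rank 3176, replicate 1 at rank 5410 with a summit 36 bp upstream, and replicate 3 at rank 22899 with a summit 171 bp downstream. An intronic summit 7880 bp into ptc ranked just above it, at 4507 with a signal of 146.162, and had ranks 5186, 6538 and 3142 in replicates 1, 2 and 3.

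In all, 24 pooled summits fell in the ptc window, 14 of them in the body, and their intervals covered 8.87 kb or 34.7% of it. That is 0.938 relaxed summits per kb, a density that 72 protein-coding genes (0.516%) reached or passed, against a median of 0.192 over all protein-coding genes. The replicates gave 0.978, 0.899 and 0.821 summits per kb, which 0.351%, 0.853% and 0.71% of genes reached or passed. Over all protein-coding genes the medians of the replicates were 0.242, 0.247 and 0.188 summits per kb, so the ptc window was denser than the median gene in every list. The other 8 windows together held 56 pooled summits in 157.1 kb, or 35.7 per 100 kb, against 43.8 with ptc and 23.9 over all gene windows. By number and place of IDR summits alone, 0 at the promoter, 0 in the body and 3 in the flanks, ptc was the same as 161 protein-coding genes, the first 3 of which by symbol were Acsf3, Adk2 and BBS8.

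**Figure D3:**
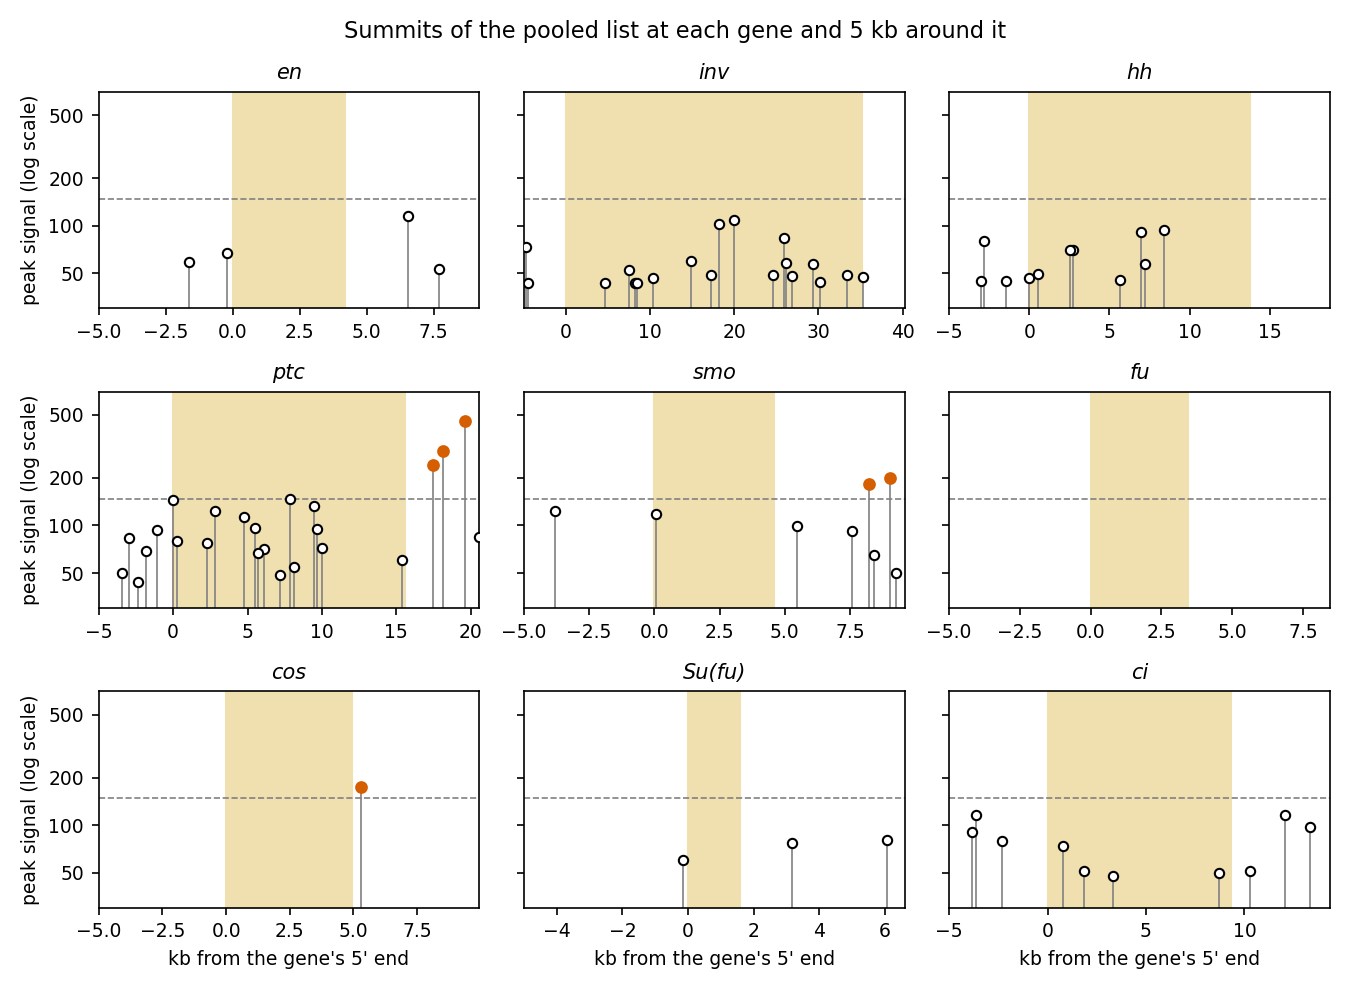
Pooled summits in each gene window, by distance in kb from the 5′ end of the gene in the direction of transcription (each panel has its own scale) and by peak signal (log scale); shading is the gene body, filled points are IDR summits and the dashed line is the lowest IDR signal, 147.508. The 6 filled points lie past the 3′ ends of ptc, smo and cos, and open points lie under the line throughout ptc, inv and hh.

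The signal transducer Smoothened is a multipass membrane protein. Its gene smo (FBgn0003444, 2L:277582-282167, plus strand) had 2 IDR summits in its window, 3625 and 4462 bp past its 3′ end. Both lay at the promoter of CG3625, at 66 and 98 bp from a TSS of that gene, and the outer one also at the start of the antisense RNA gene asRNA:CR46263. The outer summit had a signal of 199.023, rank 2793 and ranks 3304 and 1904 in replicates 1 and 2, and no counterpart in replicate 3. The inner summit had a signal of 183.384, rank 3173 and ranks 1729, 4289 and 5636 in replicates 1, 2 and 3. Neither was among the strongest 4426 peaks of replicate 3.

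At the promoter of smo the pooled list had a summit 81 bp downstream of the TSS, with rank 6348 and signal 118.487. It rested on replicate 2, where a summit 136 bp downstream had rank 3034 and signal 81.5663, and replicates 1 and 3 had none. CG17078, which has a TSS within 500 bp of the same summit, shares it. The 101 bp around the IDR summits near smo are given on the plus strand of dm6, 5′ to 3′, from the RefSeq copy of the assembly, as the only IDR sequences of the set shown; they hold none of the 7 motifs searched, and 39.6% of the bases of the outer and 54.5% of those of the inner are G or C. The outer is 2L:286579-286679 and the inner 2L:285742-285842.
smo outer: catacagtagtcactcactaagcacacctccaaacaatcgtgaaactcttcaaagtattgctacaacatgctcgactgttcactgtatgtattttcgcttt
smo inner: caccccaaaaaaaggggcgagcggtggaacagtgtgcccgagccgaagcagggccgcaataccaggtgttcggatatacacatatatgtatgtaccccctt

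The kinase gene fu (FBgn0001079, X:18657755-18661204, plus strand) was the one gene of the 9 with no summit in its window in the pooled list. Replicate 1 had 5 summits there, replicate 2 had 1 and replicate 3 had 1. At its promoter, replicate 1 had a summit 237 bp upstream with rank 10251 and signal 27.8023, and replicate 2 one 69 bp upstream with rank 28465 and signal 22.4428. The single summit of replicate 3 lay past the 3′ end of the gene at rank 25813. No position near fu was therefore shared by the lists of 3 replicates, and its nearest IDR summit was at the promoter of Rip11, 10321 bp from the fu TSS.

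Su(fu) (FBgn0005355, 3R:12689873-12691468, minus strand) encodes a negative regulator that binds Ci, and at 1596 bp it is the shortest of the 9. It had 3 pooled summits in its window and none in its body. The promoter summit, 139 bp upstream of the TSS, also lay within 500 bp of a TSS of the neighbour Arp1, which encodes an actin-related protein of the dynactin complex. It had rank 18193 and signal 60.4472, with ranks 11024 and 11339 in replicates 1 and 2 and no counterpart in replicate 3. The other pooled summits were in introns of kar past the 3′ end of Su(fu), at ranks 11502 and 12324, and only the second of these was found in 3 replicates, at ranks 10379, 25757 and 11579.

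The promoter summit of Su(fu) is printed as a promoter sequence of a core gene, 3R:12691557-12691657 on the minus strand of dm6, 5′ to 3′, from the RefSeq copy of the assembly. Its sequence and that of the hh intron hold the homeodomain core. This core was found at 7 of the 80 pooled summits (8.75%), against 7.47% of all pooled summits. Their G and C contents are 17.8% and 20.8%, against 40.3% at the 80 pooled summits. The part of this base content in the matches was not tested. The 101 bp at the strongest window summits of ci (rank 6499) and Su(fu) (rank 11502) held none of the 7 motifs and are not shown. The sequences shown from below the IDR list are thus those with the motif, and they do not show how common it is. In the Su(fu) promoter sequence the capitals mark TAATTA.
Su(fu) promoter: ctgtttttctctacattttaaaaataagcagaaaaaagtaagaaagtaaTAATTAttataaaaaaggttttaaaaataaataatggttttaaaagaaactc

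The kinesin-like scaffold gene cos (FBgn0000352, 2R:7382176-7387115, minus strand) had 1 pooled summit in its window, and it was an IDR summit. It lay 359 bp past the 3′ end of cos and 52 bp from a TSS of Dscam1, which encodes an immunoglobulin superfamily receptor of neurons, with a signal of 173.09 and rank 3474. Its ranks were 3658, 2346 and 6714 in replicates 1, 2 and 3. The cos promoter and body had no summit in the pooled list or in any replicate list, the only gene of the 9 with that pattern at both places.

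The gene of the pathway's transcription factor, ci (FBgn0004859, 4:47710-57041, minus strand), lies on the small chromosome 4. It had 10 pooled summits in its window and no IDR summit. The promoter summit 87 bp downstream of a TSS had pooled rank 13466 and signal 73.283. The strongest promoter summit of each replicate was 40 bp upstream at rank 4953 in replicate 1, 152 bp downstream at rank 24804 in replicate 2 and 67 bp downstream of the other TSS at rank 15087 in replicate 3. Each replicate thus had a summit at a ci promoter, but far apart in rank. Within 200 bp of the pooled promoter summit the ranks were 4953, 24804 and 15435 in replicates 1, 2 and 3. The strongest window summit, 2716 bp past the 3′ end of ci, lay 220 bp from the TSS of the noncoding RNA gene lncRNA:CR44440, with rank 6499, signal 116.704 and ranks 9645, 4380 and 10599 in replicates 1, 2 and 3. The nearest IDR summit was 10197 bp upstream of ci, 31 bp from a TSS of RpS3A, a ribosomal protein gene.

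**Figure D4:**
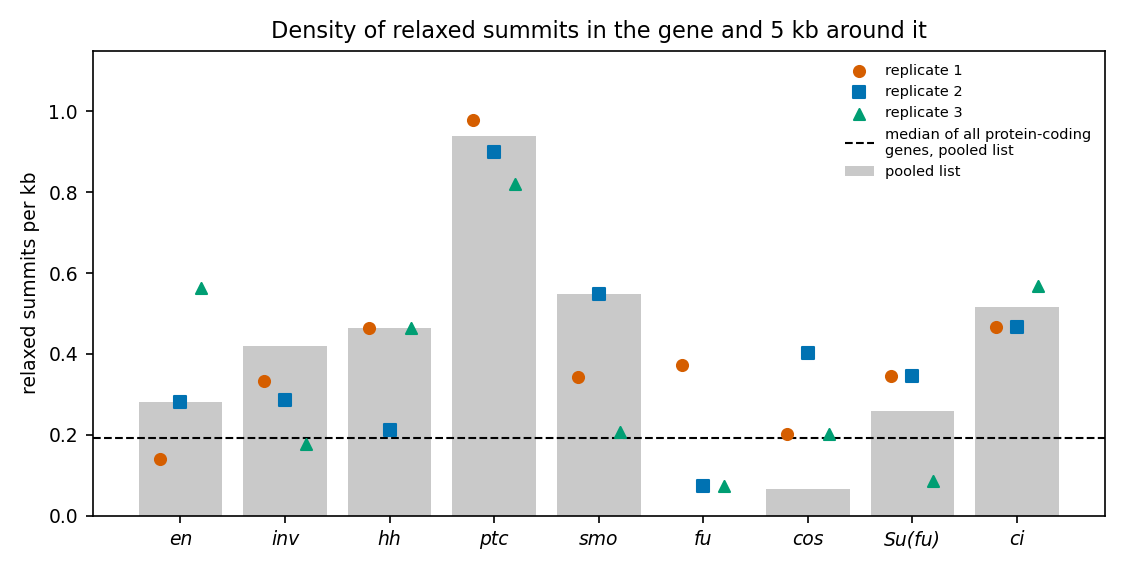
Relaxed summits per kb of each gene window in the pooled list (bars) and in each replicate list (points), with the median of all protein-coding genes in the pooled list, 0.192, as a dashed line. The ptc window holds between 0.821 and 0.978 summits per kb in the replicates, above every other gene of the set in every list.

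Seen across the set, the distance between a TSS and the nearest IDR summit had a median of 10.2 kb over the 9 genes and 9.3 kb over all protein-coding genes. It was shortest for ptc and cos at 5.3 kb and longest for inv at 39.2 kb. Of the 80 pooled summits in the 9 windows, 42 lay in gene bodies, 19 upstream and 19 downstream, and by class 42 were intronic, 17 at a promoter of any gene and 15 intergenic. A counterpart in all 3 relaxed replicate lists was present for 26 of the 80 (32.5%), against 33.9% of all 30000 pooled peaks, and 6 of the 80 had none in any replicate. The replicates alone gave 79, 73 and 67 summits in these windows. Relaxed density differed between replicates for several genes, as for en with 0.141, 0.282 and 0.563 summits per kb in replicates 1, 2 and 3, and for fu with 0.372, 0.074 and 0.074.

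Short sequence motifs were searched on both strands within 50 bp of each summit. They were GAGAG for GAGA factor, GCCAT for the Pho core, TATCGATA for the DNA replication-related element, GGTCACAC for a core promoter motif, TGGGTGGTC for Ci, TAATTA for the homeodomain core and CAGCTG for an E-box. Of the 6 IDR summits, 1 held GAGAG (16.7%, against 12.2% of all IDR summits), 1 held TAATTA (16.7%, against 10.1%) and 0 held any of the others, which occurred at 13.1% (GCCAT), 0.904% (TATCGATA), 0.813% (GGTCACAC), 0.0226% (TGGGTGGTC) and 3.43% (CAGCTG) of all IDR summits. Of the 80 pooled summits, 14 held GCCAT (17.5%, against 17.2% of all pooled summits), 10 held GAGAG (12.5%, against 13.0%) and 7 held TAATTA (8.75%, against 7.47%). These shares were close to those of the whole list. In the 101 bp around the summit, G and C made up 43.7% at the 6 IDR summits, against 34.8% at all IDR summits, and 40.3% at the 80 pooled summits, against 39.8% at all pooled summits.

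The wider pathway was described with 34 other genes that act on the ligand, receptor, kinases or turnover of Ci and Smoothened, or are segment polarity targets or cofactors of Engrailed. Of these, 10 had an IDR promoter summit (29.4%, against 14.8% of all protein-coding genes) and 20 an IDR summit in the window (58.8%, against 41.5%). They are long genes, with a median length of 11.8 kb, against 4.9 kb for the 9 core genes and 2.2 kb for all protein-coding genes, and the part of length in these shares was not tested.

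Promoter summits were found at 3 of 7 kinase genes and 3 of 8 genes for processing and spread of the ligand. They were found at 1 of 2 coreceptors, 1 of 3 cofactors, 1 of 6 turnover genes and 1 of 8 targets. Over all protein-coding genes the share was 14.8%. Each role holds few genes, with median lengths from 7.4 kb (ligand) to 19.9 kb (kinases), so the roles are not compared. The strongest promoter summit was at gish, a casein kinase, with a signal of 934.359 and rank 181. Its ranks were 195, 240 and 147 in replicates 1, 2 and 3. The corepressor gene gro followed with a signal of 643.958 and rank 341, and sgg, the Drosophila glycogen synthase kinase 3, with a signal of 634.075 and rank 350. These 3 were stronger than any summit near the 9 core genes and were matched in every replicate, gro at ranks 395, 497 and 302 and sgg at 467, 334 and 365.

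The remaining promoter summits were at rdx, which encodes a Cullin 3 adaptor for Ci (rank 1089), nkd (rank 1952), the glypican genes dally (rank 2002) and dlp (rank 2186, shared with RecQ5), Pka-C1, the catalytic subunit of protein kinase A (rank 2872, shared with hoip), the heparan sulfate polymerase gene ttv (rank 3768) and the coreceptor gene ihog (rank 4247). By number of summits in the window, hth had 11 with none at a promoter, rdx 9, dlp 7, nkd 5 and sgg 4. The segment polarity gene wg, like ara, caup, gsb and gsb-n among the targets, had 0.

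**Figure D5:**
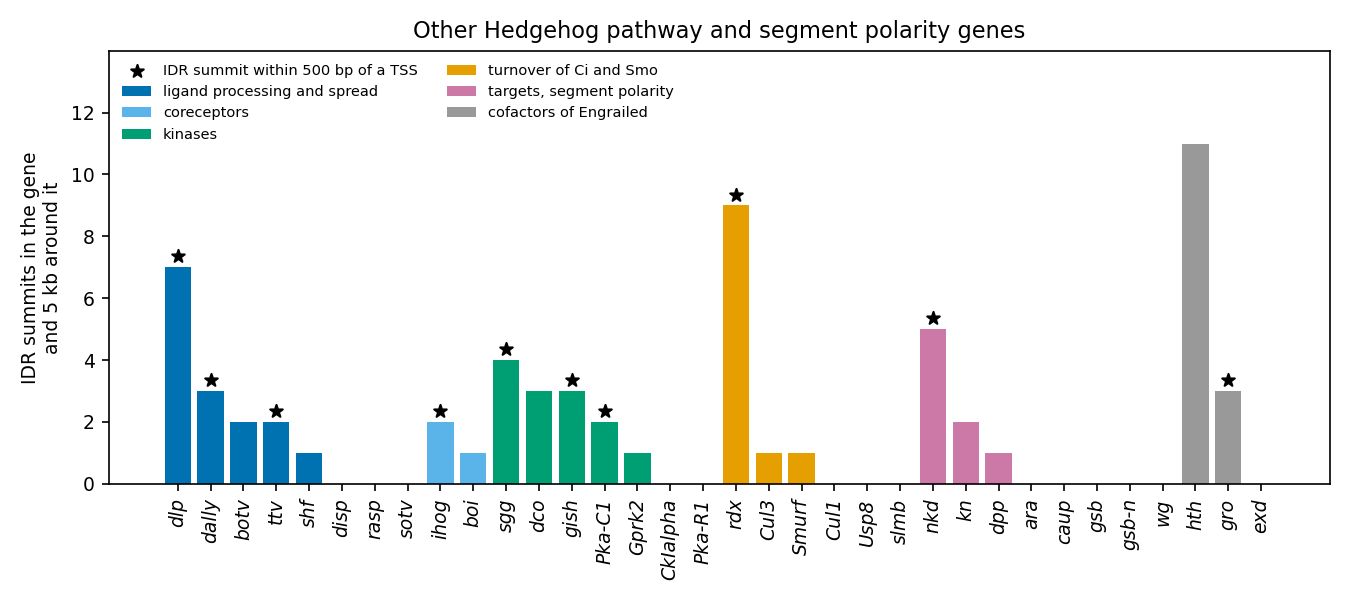
Number of IDR summits in the body and 5 kb around it for each of the 34 other pathway genes, grouped and coloured by role; stars mark genes with an IDR summit within 500 bp of a TSS. Stars stand over 10 genes, and 14 genes, wg among them, have no summit.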

How the data were processed

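Per the readme texts deposited with the samples, peaks of a replicate list come from 1 biological replicate set against a control alignment used for all of them, those of the pooled list from the 3 replicates and this control, and those of the IDR list from the 4 lists together. For the aligner, caller, versions, IDR threshold and read depth, the value is not given in the sources used here, so the precision of a single signal is unknown. The signal of each peak is the deposited value of the authors' caller and was used only to rank, filter and describe peaks within a list. The lists on dm3 were not used here.

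Summits were placed against the Ensembl release 115 annotation of dm6 with Python 3.11.15, NumPy 2.4.6 and pandas 2.3.3, and figures drawn with Matplotlib 3.10.9. Sequence came from RefSeq, in which all 9 genes have the same start and end. A promoter was 500 bp on either side of any TSS, a window the gene body and 5 kb on each side, and a counterpart the strongest replicate summit within 200 bp. Placement was tested on simulated summits.

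There is 1 group, so no test between conditions was made, and counts are set beside those of all protein-coding genes. The genes, lists and alternatives were chosen with earlier results of these data known. All 9 genes are named, as are genes whose TSS lies within 500 bp of a summit given, the other pathway genes with an IDR promoter summit, and the 5 genes of that list with most window summits. Likeness was the Euclidean distance in promoter, body and flank counts, ties by symbol. Alternatives were promoter windows of 200 and 1000 bp, flanks of 0, 2 and 10 kb, match distances of 100 and 400 bp, motif windows of 25 and 100 bp on each side, the strongest 2213 IDR peaks, single replicates, and omission of 1 replicate at a time.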

Additional observations from a re-analysis of the deposited data

How the results depend on the processing

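No paired analysis was possible because there is 1 group. The count of 0 genes with an IDR promoter summit was also 0 with a promoter window of 1000 bp and in replicates 1 and 3 alone. It was 2 (ptc and smo) in replicate 2 alone. The 200 bp window, the strongest 2213 peaks and the omission of a replicate only remove summits, so their 0 was fixed in advance. The 3 genes with a window summit became 0 with gene bodies alone, 2 with 2 kb and 4 with 10 kb around the body. They became 1 (ptc) with the strongest 2213 peaks, 4 in replicate 2 alone, and 1 to 3 without a replicate. Replicates 1 and 3 alone each gave 3, which in replicate 3 were inv, ptc and smo. Without replicate 1 or replicate 2 only ptc kept summits, and without replicate 3 ptc, smo and cos all did. The 6 window summits became 0 with gene bodies alone, 2 with 2 kb and 10 with 10 kb around the body, 3 with the strongest 2213 peaks, 10 in replicate 2 alone, and 2 to 6 without a replicate. The changes with window size and peak number follow from their construction. The counts without a replicate follow from which replicates matched each summit. For the others the cause was not tested. Counterparts in every replicate were found for 2 of the 6 summits, for 1 within 100 bp, and for 5 anywhere in the relaxed lists. With 100 bp on each side, GAGAG was found at 3 summits and CAGCTG at 1. The 10 other pathway genes with a promoter summit became 7 to 14 under the alternatives, 7 without each replicate. Of 112 values, 84 stayed within their limits. Many of these were counts of 0 that the setting could not raise, so the tally does not measure stability. Leaving out a replicate drops IDR peaks but does not call them again. These ranges therefore do not show how far the counts would move with new calls. The unknown depth limits what an absent summit shows.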
